A study of Homo sapiens with 6 samples.

Results

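Small nucleolar ribonucleoproteins (snoRNPs) are the particles that guide chemical modification of ribosomal RNA. A box C/D snoRNP carries fibrillarin (FBL), the methyltransferase, with NOP56, NOP58 and SNU13, and it methylates riboses. A box H/ACA snoRNP carries dyskerin (DKC1), the pseudouridine synthase, with NHP2, NOP10 and GAR1, and it converts uridine to pseudouridine. The guide RNA of each particle pairs with its target and thereby chooses the modified base. NOLC1 is a nucleolar and Cajal body phosphoprotein that binds both kinds of particle, and NAF1 is an H/ACA assembly factor whose place GAR1 takes in the mature particle. The transcripts of these 10 genes were taken by symbol from a table of 61541 Ensembl genes, and all 10 passed edgeR's filter on low counts, as did 17678 genes in all.

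The libraries came from H9, a T-cell lymphoma cell line of the CTCL type and labelled wild type (WT), so that each value describes a single line in culture. Cells received vehicle (DMSO, 3 libraries) or AZD4573, an inhibitor of the elongation kinase CDK9 (3 libraries, 4 h by the labels and 50 nM by the study's figure legends). The legends give the same time as the labels, whereas the study's discussion mentions a longer exposure. The comparison asks which transcripts differ in level after this treatment. The study named genes CDK9 dependent from ChIP-seq of RNA polymerase II together with RNA-seq, and only RNA-seq counts are used here. The labels number the libraries without saying whether they came from separate cultures, so that p-values measure the spread between libraries, which may be technical.

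Total counts ranged from 70367303 to 76571157 with DMSO and from 52101868 to 63795185 with AZD4573. The lowest count of a member was 704 (NAF1, an AZD4573 library) and the highest was 49326 (NOLC1, a DMSO library). The mRNAs encoded by the mitochondrial genome made up 3.04% to 3.22% of the counts with DMSO and 4.67% to 4.98% with AZD4573, so that the results were also computed with the libraries scaled to them. Over the genes tested, the median log2 fold change was 0.03 with TMM and -0.71 with this scaling. Of 10 T-cell markers, 7 exceeded a mean of 10 CPM (here, counts scaled by the library total) with DMSO, CD4 was at 3.96 CPM, and CD2 and CD7 stayed below 1 CPM in every library. Of 12 markers of B, myeloid, epithelial and stromal cells, 9 stayed below 1 CPM in every library, KRT14 among them at 0, while CD79A was at 59.9, EPCAM at 161 and COL1A1 at 6.55 CPM with DMSO. The sum of the T-cell markers ranged from 1088 to 1128 CPM with DMSO and from 1519 to 1531 CPM with AZD4573, and that of the other markers from 220 to 239 and from 221 to 229 CPM. The part of these shifts in the results on snoRNP genes was not tested.

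Guide RNAs are carried in introns of other genes, and 3 of the 10 genes are themselves hosts. By coordinates on GRCh38 (GENCODE release 44), 11 snoRNA genes lie inside members on the same strand, 5 in NOP56, 4 in NOP58 and 2 in DKC1. Of these, 8 are box C/D and 3 are box H/ACA RNAs, so that genes for snoRNP proteins also carry the RNAs these proteins bind. Examples are shown 5′ to 3′ in DNA letters, with capitals for the box C letters TGATGA and the last CTGA (box D) of the box C/D RNAs and for the last ACA of the box H/ACA RNAs. SNORD110 (chr20:2654212-2654286), SNORA51 (chr20:2655067-2655198) and SNORD57 (chr20:2656939-2657010) lie in NOP56, SNORD11 (chr2:202293051-202293134) lies in NOP58, and SNORA36A (chrX:154768528-154768659) lies in DKC1, all on the plus strand.
SNORD110: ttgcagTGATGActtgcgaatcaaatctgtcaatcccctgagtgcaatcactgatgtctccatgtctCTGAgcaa
SNORD57: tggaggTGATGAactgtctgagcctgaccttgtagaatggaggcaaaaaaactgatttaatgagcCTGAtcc
SNORD11: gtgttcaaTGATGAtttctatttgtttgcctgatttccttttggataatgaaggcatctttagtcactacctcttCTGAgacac
SNORA51: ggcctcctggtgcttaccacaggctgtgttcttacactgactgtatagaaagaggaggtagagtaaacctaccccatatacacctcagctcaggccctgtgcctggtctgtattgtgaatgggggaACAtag
SNORA36A: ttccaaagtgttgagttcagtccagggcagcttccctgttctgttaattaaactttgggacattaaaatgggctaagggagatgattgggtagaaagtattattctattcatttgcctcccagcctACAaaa
In both box H/ACA examples the ACA stands 3 bases before the end of the annotated RNA. The box H/ACA RNA not shown, SNORA56 in DKC1, ends with its last ACA. Of the box C/D RNAs not shown, SNORD86 and SNORD56 in NOP56 and SNORD70 and SNORD70B in NOP58 lack the exact letters TGATGA. All 11 hosted snoRNA genes had 0 counts in each of the 6 libraries, where 3 counts correspond to between 0.0392 and 0.0576 CPM. Of 991 snoRNA and scaRNA (Cajal body RNA) genes in the table, 33 had a count in any library. The labels describe poly(A) selection, and the study's methods describe rRNA depletion. Whether these libraries can hold so short an RNA was not tested. The values below are counts assigned to the host genes, whose annotated exons include some of these snoRNA bases.

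Upon AZD4573 treatment, transcripts of 6 members fell (NOP56, NOP58, DKC1, NOP10, GAR1 and NAF1) and those of 3 rose (FBL, NHP2 and NOLC1, all lower with mitochondrial scaling). The call used TMM normalization, edgeR's quasi-likelihood test and a threshold of 0.05 on the adjusted p. In bulk RNA, fewer cells of a type and less RNA per cell cannot be told apart. Of all 17678 genes tested, 37.4% were lower and 37.3% were higher by this rule. With a fold change of at least 1.5 in addition, 2 members were lower (GAR1 and NAF1) and 0 were higher, against 23.7% and 22.7% of all genes. DESeq2 gave the same counts of 2 and 0, and since no member rose by as much as 1.5-fold the count of 0 also holds at an unadjusted p under 0.05. Without AZD4573 replicate 1, the count of lower members by this rule was 4 in place of 2. The median log2 fold change of the 10 members was -0.22, with a range from -1.38 to 0.43, beside 0.03 for all genes tested. Scaled to the mitochondrially encoded mRNAs, all 10 were lower and 0 higher by edgeR's adjusted p or at an unadjusted p under 0.05, where 67.2% of all genes were lower and 12.1% higher. The members' median was then -0.95, beside -0.71 for all genes. With library size as the only scaling, 7 members were lower and 2 higher.

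**Figure D1:**
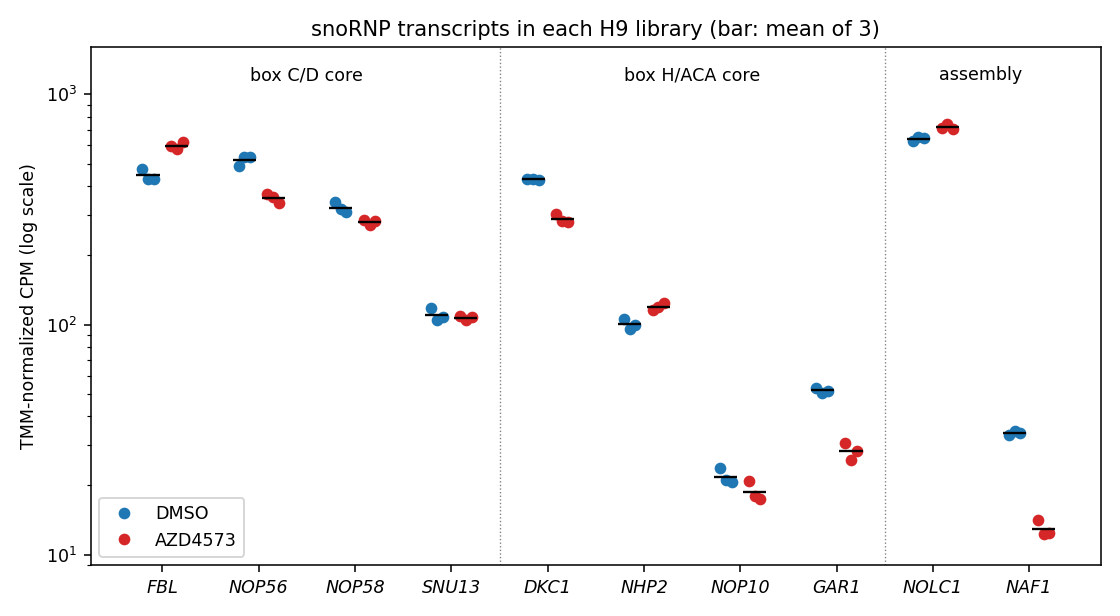
TMM-normalized CPM (log axis) of the 10 snoRNP genes in each of the 6 H9 libraries, with a bar at the mean of 3 libraries. All AZD4573 points lie below all DMSO points for NOP56, NOP58, DKC1, GAR1 and NAF1 and above them for FBL, NHP2 and NOLC1, which turn lower when scaled to mitochondrial mRNAs, and the groups overlap for SNU13 and NOP10.

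Among the box C/D transcripts, those of the scaffold proteins NOP56 and NOP58 fell. The transcript of the methyltransferase FBL rose with TMM scaling but not with mitochondrial scaling. FBL (ENSG00000105202, chr19:39834458-39846379, minus strand) was at 476, 430 and 431 TMM-normalized CPM in the DMSO libraries and at 596, 581 and 621 CPM with AZD4573. The groups did not overlap, and edgeR gave a log2 fold change of 0.43 ± 0.0488 (standard error, as for each log2 fold change below) with an adjusted p of 2.83e-06. This direction depends on the scaling, since the log2 fold change was -0.31 (adjusted p = 0.000298, edgeR) when scaled to mitochondrial mRNAs. NOP56 (ENSG00000101361, chr20:2652593-2658393, plus strand) was at 489, 537 and 537 CPM with DMSO and at 370, 357 and 337 CPM with AZD4573. It was lower in each AZD4573 library, and its log2 fold change was -0.56 ± 0.0499 (adjusted p = 2.56e-07, edgeR). Its exon union of 4950 bases includes 472 bases annotated as snoRNA or miRNA genes.

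NOP58 (ENSG00000055044, chr2:202265736-202303661, plus strand), the paralog of NOP56 on the other side of the particle, changed less. It was at 340, 318 and 308 CPM with DMSO and at 284, 272 and 282 CPM with AZD4573, and the groups did not overlap. The log2 fold change was -0.21 ± 0.0450 (adjusted p = 0.000966, edgeR). Of its 3274 exon bases, 336 are shared with an antisense transcript or a snoRNA gene on the same strand. SNU13 (ENSG00000100138, chr22:41673933-41690504, minus strand) binds the kink-turn of the guide RNA and also the U4 snRNA of the spliceosome. It was at 118, 104 and 108 CPM with DMSO and at 109, 105 and 108 CPM with AZD4573. The groups overlapped, and the log2 fold change of -0.04 ± 0.0504 did not pass the test (adjusted p = 0.511, edgeR). It was called lower with library size only (-0.14, adjusted p = 0.0197, edgeR) and with mitochondrial scaling. Over the alternative fits, SNU13 lay between -0.78 with mitochondrial scaling and 0.0046 without DMSO replicate 1, the replicate with its highest value.

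Among the box H/ACA transcripts, DKC1, NOP10 and GAR1 fell, and NHP2 rose with TMM scaling but not with mitochondrial scaling. DKC1 (ENSG00000130826, chrX:154762742-154777689, plus strand), which is also part of telomerase, was at 429, 430 and 423 CPM with DMSO and at 303, 282 and 279 CPM with AZD4573. The DMSO libraries lay within a narrow band well above the AZD4573 libraries, and the log2 fold change was -0.57 ± 0.0428 (adjusted p = 4.23e-08, edgeR). Of the 9198 exon bases of DKC1, 261 are annotated as snoRNA or miRNA genes. NHP2 (ENSG00000145912, chr5:178149463-178153894, minus strand), a relative of SNU13 in the same RNA-binding family, was at 106, 95.6 and 99.8 CPM with DMSO and at 116, 119 and 124 CPM with AZD4573. The groups did not overlap, and the log2 fold change was 0.25 ± 0.0486 (adjusted p = 0.000355, edgeR), which turned to -0.49 (adjusted p = 2.15e-06) with mitochondrial scaling. Of its 1476 exon bases, 414 lie opposite exons of RMND5B. The methods describe a directional kit and default RSEM settings, and whether the counting used strand, without which reads of both genes are not told apart, was not tested.

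NOP10 (ENSG00000182117, chr15:34339159-34343180, minus strand), the smallest protein of the particle, was at 23.7, 21.1 and 20.7 CPM with DMSO and at 20.9, 17.9 and 17.4 CPM with AZD4573. One AZD4573 library lay within the DMSO range, and the log2 fold change was -0.22 ± 0.0803 (adjusted p = 0.0215, edgeR). This call was lost without DMSO replicate 1 (adjusted p = 0.0724), without AZD4573 replicate 2 (adjusted p = 0.0783) and without AZD4573 replicate 3 (adjusted p = 0.0913). GAR1 (ENSG00000109534, chr4:109815510-109824740, plus strand), which joins the particle last, was at 53.2, 50.7 and 51.7 CPM with DMSO and at 30.6, 25.7 and 28.3 CPM with AZD4573. All AZD4573 libraries were below all DMSO libraries, and the log2 fold change was -0.88 ± 0.0629 (adjusted p = 2.66e-08, edgeR).

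Of the 2 assembly transcripts, NAF1 fell, and NOLC1 rose with TMM scaling but not with mitochondrial scaling. NAF1 (ENSG00000145414, chr4:163110073-163166890, minus strand), which escorts dyskerin and the nascent H/ACA RNA before GAR1 replaces it, was at 33.2, 34.5 and 33.6 CPM with DMSO and at 14.2, 12.4 and 12.4 CPM with AZD4573. This was the largest change among the members, a log2 fold change of -1.38 ± 0.0666, or 2.61-fold lower (adjusted p = 6.69e-10, edgeR). NOLC1 (ENSG00000166197, chr10:102152176-102163871, plus strand) was the most abundant of the 10 in CPM, at 629, 653 and 646 CPM with DMSO and at 714, 747 and 707 CPM with AZD4573. The groups did not overlap, and the log2 fold change was 0.17 ± 0.0411 (adjusted p = 0.00211, edgeR). NOLC1 turned to -0.57 with mitochondrial scaling, and with library size as the only scaling it was at 0.06 and no longer passed (adjusted p = 0.147).

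Over the 10 genes, every AZD4573 library lay below every DMSO library for 5 and above for 3, where 38.7% and 39.0% of all genes tested did so. The 4 box C/D core genes had a median log2 fold change of -0.12 (2 lower, 1 higher by the test) and the 4 box H/ACA core genes one of -0.40 (3 lower, 1 higher). Few counts were assigned to annotated copies of the members elsewhere in the genome. How reads that match both a member and a copy were divided was not tested. Of 17 pseudogenes annotated for 8 of the members, 6 had a count in any library, and the highest was 26 counts (NOP56P1). FBLL1, a paralog of FBL, had at most 278 counts, beside at least 30330 for FBL.

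**Figure D2:**
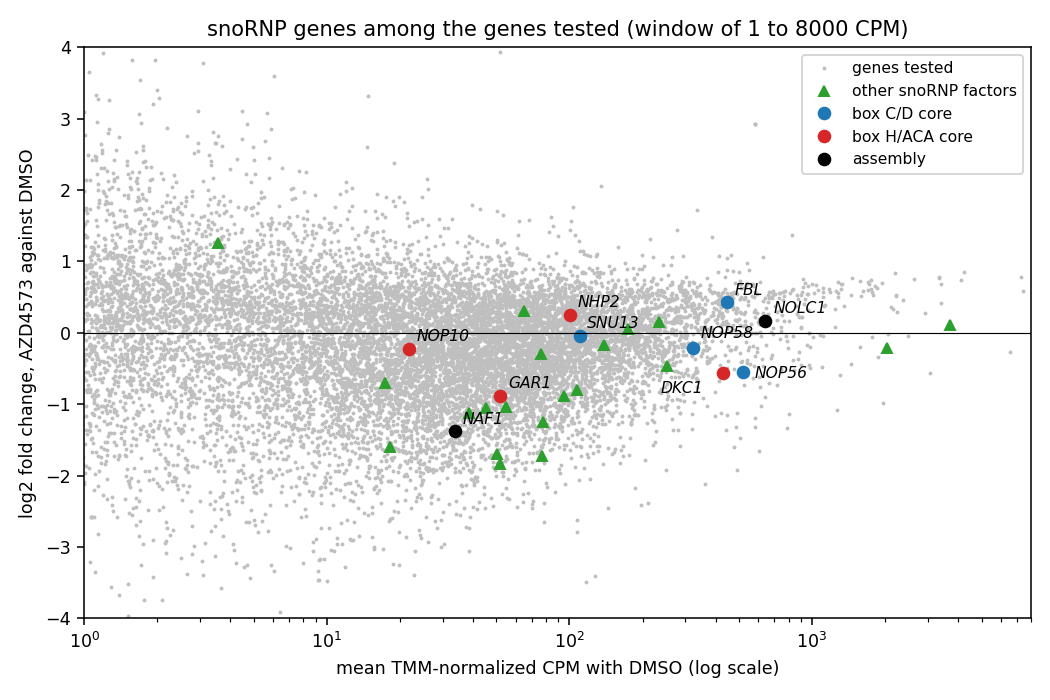
Mean TMM-normalized CPM with DMSO (log axis) against the log2 fold change for the genes tested (grey), the 10 snoRNP genes (circles, named) and 20 other snoRNP factors (triangles). Both axes are cut, so that genes tested with a very low level or a very large change are not shown. The members range from -1.38 (NAF1) to 0.43 (FBL), and NOLC1, NOP56, FBL, DKC1 and NOP58 lie above 300 CPM.

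Read against genes of a like level, the members lay on both sides. The genes tested were divided by their mean level with DMSO into 5 groups of equal size. From 68.7 to 7436 CPM, where FBL, NOP56, NOP58, SNU13, DKC1, NHP2 and NOLC1 lie, the median log2 fold change was -0.06. From 24.0 to 68.6 CPM, the range of GAR1 and NAF1, it was -0.29, and from 4.59 to 24.0 CPM, the range of NOP10, it was -0.19. Among all genes tested, FBL stood at percentile 68.5 of the log2 fold changes, NHP2 at 60.6 and NOLC1 at 56.6. SNU13 stood at percentile 47.2, NOP58 at 39.95, NOP10 at 39.1, NOP56 at 26.2, DKC1 at 25.6, GAR1 at 16.8 and NAF1 at 7.67. These percentiles are over genes of all levels, not over genes of a like level.

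A ratio between transcripts of the same library does not depend on how libraries are scaled, so that the core transcripts of each particle were also compared with those of their partners. This comparison was chosen after the values were seen. Protein levels and the make-up of the particles were not measured in these libraries. All 12 ratios (6 pairs in each particle) had groups that did not overlap, as did 74.1% of all pairs of genes tested. With 3 against 3 libraries, the exact two-sided permutation test cannot go below p = 0.1, the value reached for each pair (0.1 after adjustment over 12 pairs). The ratio of FBL to NOP56 counts was 0.972, 0.801 and 0.803 with DMSO and 1.61, 1.63 and 1.84 with AZD4573, a rise of the ratio by 1.98-fold, and DMSO replicate 1 stood above the other DMSO libraries. FBL also gained on NOP58 (1.55-fold) and on SNU13 (1.38-fold). Between the paralogs, NOP56 per NOP58 went from 1.44, 1.69 and 1.74 to 1.304, 1.31 and 1.19, so that NOP56 fell relative to NOP58.

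Among the box H/ACA transcripts, the largest shift of a ratio was that of NHP2 against GAR1. Their ratio was 1.99, 1.89 and 1.93 with DMSO and 3.79, 4.61 and 4.38 with AZD4573, a 2.19-fold rise. DKC1 per NHP2 went from 4.06, 4.50 and 4.24 to 2.62, 2.37 and 2.25. DKC1 and GAR1, which both fell, also parted, with 8.08, 8.49 and 8.19 counts of DKC1 per GAR1 count with DMSO and 9.92, 10.9 and 9.86 with AZD4573. NOP10 gained 1.58-fold on GAR1.

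**Figure D3:**
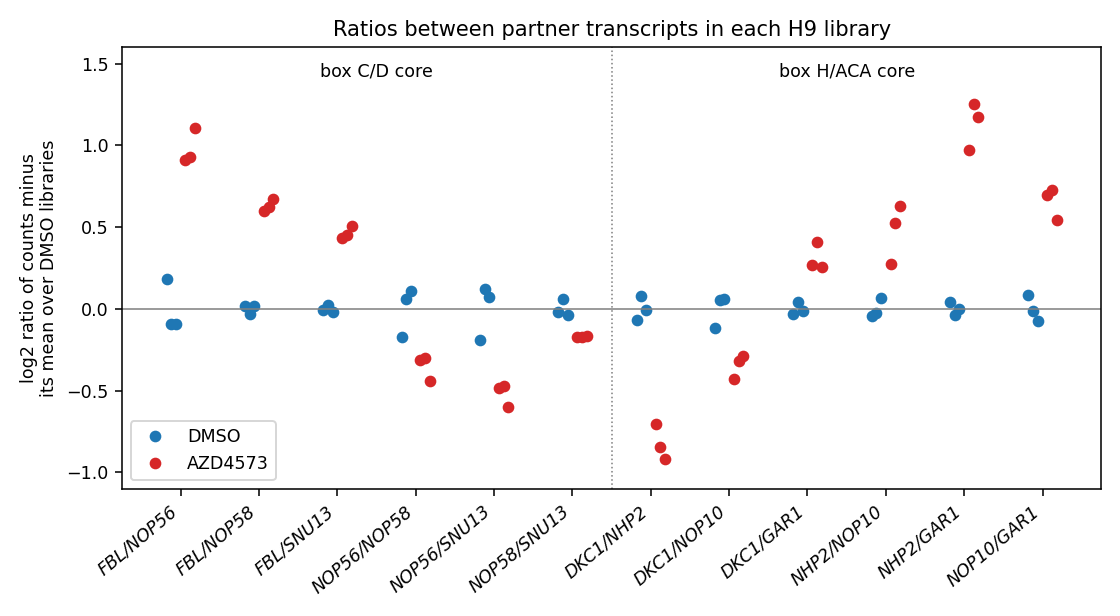
Log2 ratio of the counts of 2 partner genes in each H9 library, minus its mean over the 3 DMSO libraries, for 6 box C/D and 6 box H/ACA pairs. AZD4573 points lie on 1 side of the DMSO points for all 12 pairs, from -0.82 (DKC1/NHP2) to 1.13 (NHP2/GAR1) on average.

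Levels of different genes were compared per kilobase of their annotated exons, scaled to the same total over all genes in every library (length-scaled units). With DMSO the order was FBL (836 ± 37.5, SD, n = 3), NOLC1 (650 ± 22.6), NOP56 (423 ± 28.0), NOP58 (395 ± 16.4), NHP2 (273 ± 9.71), DKC1 (187 ± 3.31), SNU13 (151 ± 7.35), GAR1 (106 ± 0.949), NOP10 (55.6 ± 3.46) and NAF1 (28.4 ± 0.979). Of neighbours in this order, only the ranges of NOP56 and NOP58 overlapped. With AZD4573, NOP56 stood at 238 ± 14.3 (SD, n = 3), below NOP58 (284 ± 8.29) and NHP2 (269 ± 5.83) in the same units. Of the 3 members that rose with TMM scaling, only FBL was higher in these units, at 933 ± 27.4 with AZD4573. NOLC1 was lower, at 606 ± 19.6, and the ranges of NHP2 overlapped. By the length of the longest or of the canonical transcript, the ranges of NOLC1 overlapped too. By the canonical transcript NOLC1 was at 391 ± 16.4 with DMSO and 367 ± 13.4 with AZD4573 (SD, n = 3). The order depends on the length used, since by the canonical transcript DKC1 (392 ± 8.81, SD, n = 3) was above NHP2 (291 ± 8.53) with DMSO and below it with AZD4573 (221 ± 12.8 against 290 ± 5.80). By this length NOP56 also stayed above NOP58 and NHP2 with AZD4573 (351 ± 21.3 against 265 ± 6.93 and 290 ± 5.80).

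Within the summed length-scaled level of the 4 box C/D core transcripts, FBL made up 46.3% ± 1.28 (SD, n = 3) with DMSO and 59.1% ± 1.04 with AZD4573. The share of NOP56 went from 23.4% ± 1.92 to 15.1% ± 0.866 and that of NOP58 from 21.9% ± 0.510 to 18.0% ± 0.143. SNU13 held 8.36% ± 0.297 and 7.73% ± 0.0709, and its groups did not overlap. In the box H/ACA pool, NHP2 went from 43.9% ± 0.872 to 58.5% ± 2.19, DKC1 from 30.1% ± 0.969 to 22.6% ± 0.893 and GAR1 from 17.1% ± 0.164 to 10.4% ± 0.714. NOP10 stayed within overlapping ranges, at 8.95% ± 0.406 and 8.57% ± 0.784. By the canonical transcript's length, DKC1 led this pool with DMSO (43.7% against 32.5% for NHP2) and NHP2 with AZD4573 (45.8% against 34.9% for DKC1). The summed box C/D level was 2.90, 2.94 and 2.88 times the box H/ACA level in the DMSO libraries and 3.40, 3.41 and 3.45 times in the AZD4573 libraries. Both sums had lower means with AZD4573, box C/D from 1804 to 1577 and box H/ACA from 621 to 461. Of the box C/D transcripts only FBL had a higher mean (836 to 933). NOP56 (423 to 238), NOP58 (395 to 284) and SNU13 (151 to 122) were lower, so that the ratio does not describe all 4 transcripts.

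**Figure D4:**
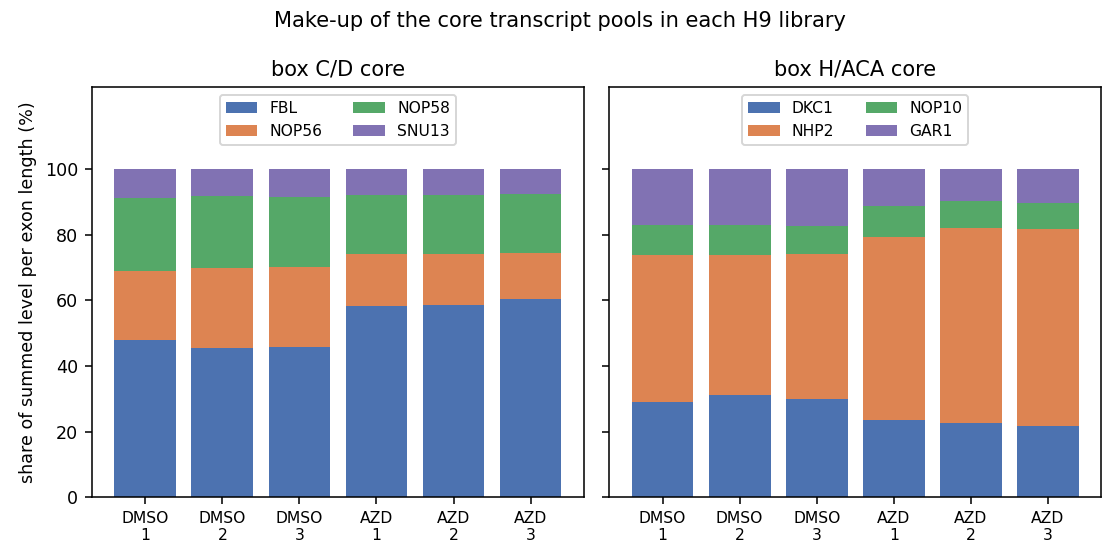
Share of each core transcript in the summed length-scaled level of its particle (percent, stacked to 100) in each H9 library, by exon-union length. FBL takes 45.5% to 47.8% of the box C/D pool with DMSO and 58.4% to 60.3% with AZD4573, and NHP2 takes 43.0% to 44.7% and 56.0% to 60.1% of the box H/ACA pool, where by canonical transcript DKC1 leads with DMSO.

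Around these proteins, 20 other snoRNP factors were examined, from a list written with earlier results of these data known. By edgeR's adjusted p alone, 15 were lower and 4 higher, and with a fold change of at least 1.5 in addition 11 were lower and 1 higher (37.4%, 37.3%, 23.7% and 22.7% of all genes, in this order). Their median log2 fold change was -0.75, beside -0.22 for the 10 members and 0.03 for all genes tested. The difference between the lists was not tested.

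Of the box H/ACA assembly factors, SHQ1, the chaperone of free dyskerin, was at 50.3, 50.6 and 50.5 CPM with DMSO and at 17.5, 14.3 and 14.7 CPM with AZD4573. It fell by 1.70 on the log2 scale (adjusted p = 2.11e-10, edgeR), beside 1.38 for NAF1 and 0.57 for DKC1 as amounts of decrease. WRAP53, which directs Cajal body RNPs and telomerase, went from 17.3 ± 0.652 CPM to 10.6 ± 0.465 CPM (SD, n = 3), or -0.70 on the log2 scale, and 1392 of its 6009 exon bases lie opposite another gene. TENT4B, a poly(A) polymerase that tags the 3′ ends of H/ACA RNAs for trimming, had one of -1.13.

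Of the box C/D assembly factors, NUFIP1 was at 18.1, 18.4 and 18.3 CPM with DMSO and at 5.68, 6.23 and 6.14 CPM with AZD4573, or -1.60 on the log2 scale (adjusted p = 4.59e-10, edgeR). Its partner ZNHIT3, of whose 6687 exon bases 1166 lie opposite other genes, had a log2 fold change of -1.05, and ZNHIT6 one of -0.81. The R2TP chaperone complex loads the core proteins. Its subunit RPAP3 fell by 1.25 on the log2 scale, from 77.8 ± 2.11 to 32.6 ± 0.197 CPM (SD, n = 3), whereas PIH1D1 rose by 0.31 and RUVBL2 by 0.15 with TMM scaling, though both were lower with mitochondrial scaling. The call of RUVBL2 was also lost with library size only (adjusted p = 0.224, edgeR) and without a filter (adjusted p = 0.0665). RUVBL1 did not pass the test (0.06, adjusted p = 0.199, edgeR). PIH1D1, RUVBL2 and RUVBL1 fall outside the rule for named genes and were chosen after their values were seen. All 3 had negative log2 fold changes with mitochondrial scaling (-0.43, -0.58 and -0.68).

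Of the factors named for a change of at least 1.5-fold, 4 more are known from the transport and caps of these RNAs, from Cajal bodies and from the U3 snoRNP, and their direction is part of how they were chosen. PHAX, an export adaptor that also takes the U3 precursor to Cajal bodies, was at 56.4, 50.7 and 48.5 CPM with DMSO and at 17.0, 13.5 and 12.98 CPM with AZD4573. The change of -1.84 on the log2 scale (adjusted p = 9.48e-10, edgeR) was the lowest of the list. TGS1, the cap hypermethylase, followed with -1.72 and COIL, the scaffold of Cajal bodies, had -1.03. RRP9, a protein particular to the U3 snoRNP by its known role, went from 94.7 ± 1.21 CPM to 51.5 ± 1.35 CPM (SD, n = 3), or -0.88 on the log2 scale.

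TERT, the telomerase reverse transcriptase that works with dyskerin, was the one factor with a rise of at least 1.5-fold. It was at 2.89, 3.66 and 4.15 CPM with DMSO and at 8.82, 8.89 and 7.85 CPM with AZD4573, from between 227 and 507 counts in a library. It rose by 1.26 on the log2 scale (adjusted p = 8.90e-07, edgeR), and the value stayed positive with mitochondrial scaling (0.52, adjusted p = 0.00153). Of its 5920 exon bases, 106 lie opposite an antisense transcript.

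**Figure D5:**
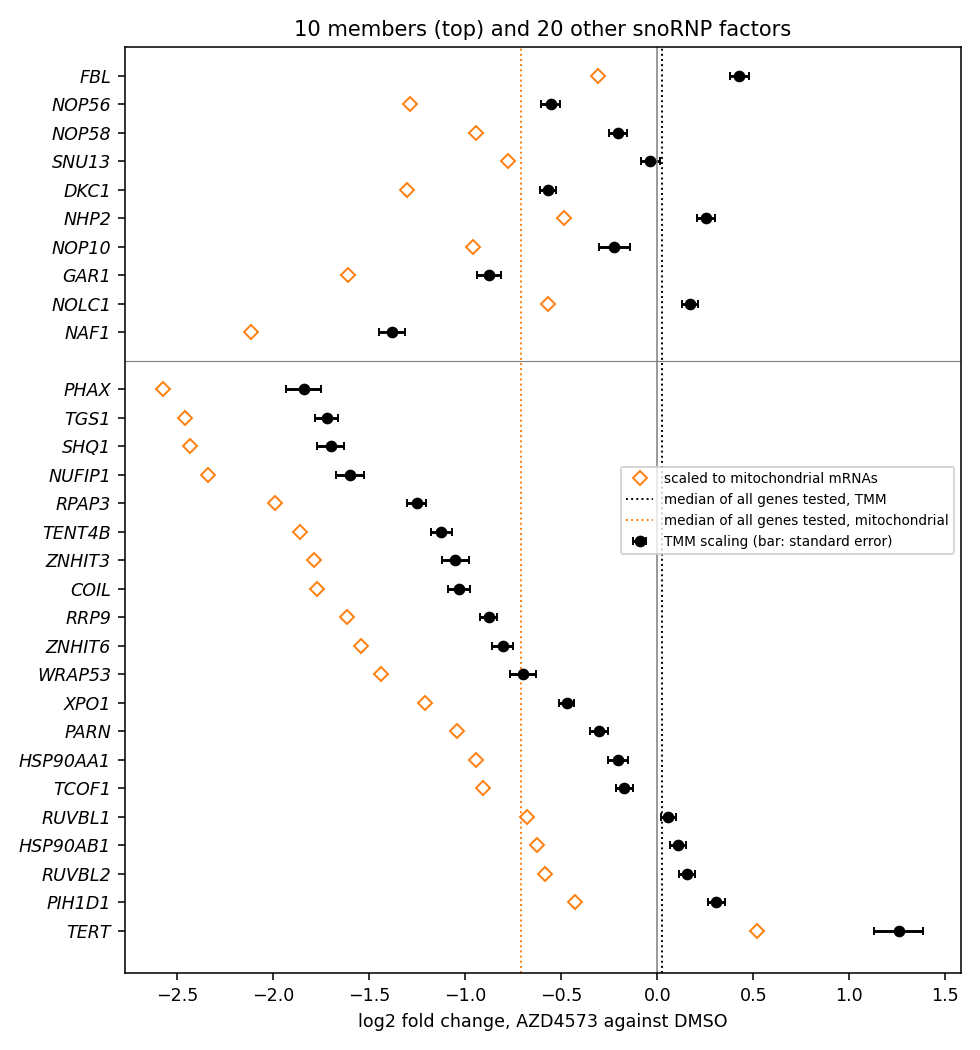
Log2 fold change of the 10 snoRNP genes (top) and 20 other factors (bottom, sorted) with TMM scaling (circles, bars are standard errors) and with scaling to mitochondrial mRNAs (diamonds), and the median of all genes under each (dotted lines). TMM values run from -1.84 (PHAX) to 1.26 (TERT), and under mitochondrial scaling FBL, NHP2, NOLC1, PIH1D1, RUVBL1, RUVBL2 and HSP90AB1 change sign.

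The genes for ribosome assembly are known targets of MYC, which binds the E-box CACGTG, so that the promoters were searched for this motif (a palindrome, which reads alike on both strands). RefSeq start sites on GRCh38.p14 were found for 6 of the 10 members, with 7 promoters of 250 bases before and 50 bases from the start. The motif was present in 3 of the 7, those of FBL, NOP10 and the second start of GAR1, and in 7.26% of 35116 promoters of the same length. They are printed because they hold the motif. Their transcripts had log2 fold changes of 0.43, -0.22 and -0.88 with TMM scaling and of -0.31, -0.96 and -1.61 with mitochondrial scaling, and the NOP10 call was lost without single libraries, as given above. FBL (chr19:39846330-39846629, minus strand) held it from position 7 of the transcript, NOP10 (chr15:34343087-34343386, minus strand) from 170 and from 11 bases before the start, and GAR1 (chr4:109815512-109815811, plus strand) from position 32 of the transcript. Capitals mark the motif.
FBL: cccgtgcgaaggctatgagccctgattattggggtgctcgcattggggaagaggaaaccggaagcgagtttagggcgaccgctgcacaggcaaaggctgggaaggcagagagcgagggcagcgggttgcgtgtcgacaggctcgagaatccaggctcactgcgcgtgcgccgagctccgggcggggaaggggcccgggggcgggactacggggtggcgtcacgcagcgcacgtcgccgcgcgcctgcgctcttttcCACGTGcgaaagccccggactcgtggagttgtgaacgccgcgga
NOP10: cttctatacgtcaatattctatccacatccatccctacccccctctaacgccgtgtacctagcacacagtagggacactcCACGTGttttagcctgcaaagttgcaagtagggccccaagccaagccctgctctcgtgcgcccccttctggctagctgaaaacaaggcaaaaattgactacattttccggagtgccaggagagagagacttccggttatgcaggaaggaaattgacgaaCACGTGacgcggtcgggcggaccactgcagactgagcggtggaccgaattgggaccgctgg
GAR1: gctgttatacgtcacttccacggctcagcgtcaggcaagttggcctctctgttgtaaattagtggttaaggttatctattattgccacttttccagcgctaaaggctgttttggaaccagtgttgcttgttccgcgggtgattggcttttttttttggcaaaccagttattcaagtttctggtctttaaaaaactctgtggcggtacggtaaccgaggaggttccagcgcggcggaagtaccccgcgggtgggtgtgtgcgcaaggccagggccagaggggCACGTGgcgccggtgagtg
The promoters of NOP56, DKC1 and NHP2 and the first start of GAR1 did not hold these letters. A match is a description of the sequence, and binding was not analysed here.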

How the data were processed

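Poly(A) RNA (by the labels) of 6 H9 libraries was sequenced. The authors trimmed reads with Cutadapt 2.3, mapped them to GRCh38 with STAR 2.7.8a and deposited RSEM 1.3.3 expected counts per gene, as whole numbers without normalization. Libraries were grouped by their labels. The 61541 Ensembl genes were filtered in edgeR 4.0.16 (R 4.3.3) on a minimum count of 10, TMM-normalized and tested by quasi-likelihood, with p-values adjusted over 17678 genes (Benjamini-Hochberg) and no replicate block. CPM are TMM-normalized unless the library total is named, and errors are SD, except standard errors for log2 fold changes. The gene names reported are the 10 members, the listed factors changed by at least 1.5-fold or at the end of the list, hosted snoRNAs, pseudogenes and the exceptions named. Members and lists were chosen with earlier results of these data known. Alternatives were RLE factors, library size only, mitochondrial scaling, no filter, a minimum of 10 counts throughout, leaving out single libraries, a replicate block, DESeq2 1.42.0, a fold change of at least 2 and other gene lengths. On simulated data, edgeR recovered 61 of 100 genes changed 1.5-fold and 82 of 100 changed 2-fold, with 16 false calls among 17478 unchanged genes. Far fewer genes were changed there than were called in the data, so that the simulation cannot judge the scaling. No library was a copy of another in its group (chi-square over degrees of freedom at least 5.29). Floors cover counting error only, since PCR copies are not told apart.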

Additional observations from a re-analysis of the deposited data

How the results depend on the processing

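With scaling to mitochondrial mRNAs, the genes past both thresholds (adjusted p under 0.05, 1.5-fold) numbered 9433 lower and 1769 higher, in place of 4191 and 4012. Among the 10 members, 10 were lower and 0 higher by adjusted p alone (67.2% and 12.1% of all genes), and 7 were lower with the fold threshold. Among the 20 other factors, 1 was higher, and with the fold threshold 17 were lower and 0 higher. Absolute amounts per cell were not measured. The log2 fold change reversed there for FBL (-0.31), NHP2 (-0.49), NOLC1 (-0.57), RUVBL1 (-0.68), RUVBL2 (-0.58), PIH1D1 (-0.43) and HSP90AB1 (-0.63). With library size only, RUVBL1 reversed to -0.047, 4 members were lower with the fold threshold and 2 other factors were higher. Without a filter these counts were also 4 and 2. With a 2-fold threshold the totals were 2450 lower and 2643 higher, with 1 member lower. With each library left out, between 2 and 4 members were lower with the fold threshold, 4 without AZD4573 replicate 1. SNU13 ranged from -0.086 to 0.0046 with single libraries left out, reversing without DMSO replicate 1. HSP90AB1 (0.11, adjusted p = 0.0280, edgeR) lost its call without DMSO replicate 2 or 3 or AZD4573 replicate 2, with library size only, without a filter (adjusted p = 0.313) and with the replicate block (adjusted p = 0.0716). What causes them was not tested. The box C/D to box H/ACA ratio changed by 0.23 on the log2 scale, by 0.20 with the longest and 0.28 with the canonical transcript as length, the latter chosen after seeing the data. Of the box C/D transcripts only FBL was higher in length-scaled units, by each of these lengths.

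The labels do not say whether replicate numbers pair the libraries. Same-numbered libraries had correlations of deviations of -0.0208, 0.0417 and 0.0316, and differently numbered ones lay between -0.0551 and 0.0199. Values this small from so few libraries cannot decide whether there is pairing. With the number as a replicate block, 6 members were lower and 3 higher, and 2 were lower with the fold threshold. Of 130 values of the members under alternatives, 120 kept their direction and side of the threshold, 4 were weaker, 2 stronger and 4 reversed. For the other factors, 246 of 260 did.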

Other observations

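The genes of the members span from 4.02 kb (NOP10) to 56.8 kb (NAF1) on GRCh38. Spearman's rho between span and log2 fold change was -0.22 over the 10 members, -0.37 over these and the 20 other factors, and -0.10 over 17638 genes tested that have a span, as a description across genes of the same libraries. By 5 groups of equal size from the shortest to the longest span, the median log2 fold change of all genes was 0.27, 0.10, -0.05, -0.14 and -0.0037. Between the mean level with DMSO and the log2 fold change, rho was 0.42 over the members, 0.46 with the other factors and -0.33 over all genes. The counts of the 10 members made up between 0.276% and 0.278% of all counts in the DMSO libraries and between 0.241% and 0.250% in the AZD4573 libraries.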
